A study of Rattus norvegicus with 12 samples.

Results

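The 9 genes described here carry or control salt transport in the thick ascending limb and the distal nephron of the rat kidney: Slc12a1, Umod, Kcnj1, Slc12a3, Kcnj10, Kcnj16, Scnn1a, Scnn1b and Scnn1g. They were chosen by symbol, as the rows of these names in 2 deposited tables of gene expression; the choice was made with earlier results of these data known, and the shares of all entries given beside their counts are a description. Each symbol had 1 entry in each table, so that 9 of the 27723 symbols found in both tables together were members, and all 9 passed the filter on low values in both tables. RNA was sequenced from renal tissue of 12 male SD rats, labelled wild type (WT) and 8 weeks old at purchase, in 4 groups of 3. Control rats received saline and adenine rats were gavaged daily with adenine (220 mg/kg), both for 3 weeks. Sham and UUO rats were examined 2 weeks after surgery, and in UUO (unilateral ureteral obstruction) the left ureter was ligated. Which kidney was sequenced in the sham and UUO rats is not given in the sources used here. Both treatments are used as models of renal fibrosis, a chemical and a surgical one, and the comparisons asked how each gene differed between treated kidneys and their own control group.

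The thick ascending limb reabsorbs sodium, potassium and chloride without water and so dilutes the urine. NKCC2, encoded by Slc12a1, carries the ions across the apical membrane, and the potassium channel ROMK, encoded by Kcnj1, returns potassium to the lumen so that the cotransporter can run; NKCC2 is the target of loop diuretics. In the distal convoluted tubule the thiazide-sensitive cotransporter NCC (Slc12a3) takes up sodium and chloride, and a basolateral channel of Kir4.1 (Kcnj10) and Kir5.1 (Kcnj16) sets the membrane voltage on which that uptake depends. Farther along, the epithelial sodium channel ENaC, built of the subunits encoded by Scnn1a, Scnn1b and Scnn1g, takes up sodium under the control of aldosterone. Uromodulin (Umod), the most abundant protein of normal urine, is made in the thick limb.

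Values are FPKM, fragment counts of a gene divided by its length and by the sample's mapped fragments. Because of the division by length, levels of different genes can be set side by side within a table. Changes are log2 fold changes of FPKM + 0.1 from limma, with the standard error (SE) and a p-value adjusted by Benjamini-Hochberg over all tested entries of the table. A gene was said to have risen or fallen where this p was under 0.05, and was called a differentially expressed gene (DEG) where the log2 fold change was also at least 2 in size. The p-values measure the spread between the rats of a group, and in whole tissue fewer cells of a type and less RNA per cell cannot be told apart.

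All 9 genes were lower in UUO than in sham, and in each of the 9 the UUO samples lay below every sham sample. The fall passed the test for all 9, against 14.4% of all tested entries that fell. 6 of the 9 were DEGs, against 4.21% of tested entries that were downregulated DEGs, and complete separation with the UUO samples lower was found for 15.7% of tested entries. In the adenine model all 9 genes had negative log2 fold changes, but 5 of 9 passed the test (Slc12a1, Umod, Kcnj1, Scnn1a and Scnn1g), against 19.9% of tested entries. Of these, 1 (Umod) was a DEG, against 5.03% of tested entries, and 4 of the 9 separated completely from the controls, against 23.0% of tested entries. The median log2 fold change of the 9 genes was −1.20 with adenine and −2.13 with UUO, while the medians of all tested entries were 0.30 and 0.62. With median-of-ratios scaling, which brings the medians of all entries to 0.0062 and 0.023, the medians of the 9 genes were −1.49 and −2.73. With FPKM rescaled to equal sums they were −0.93 and −1.91, beside 0.57 and 0.84 for all entries.

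**Figure D1:**
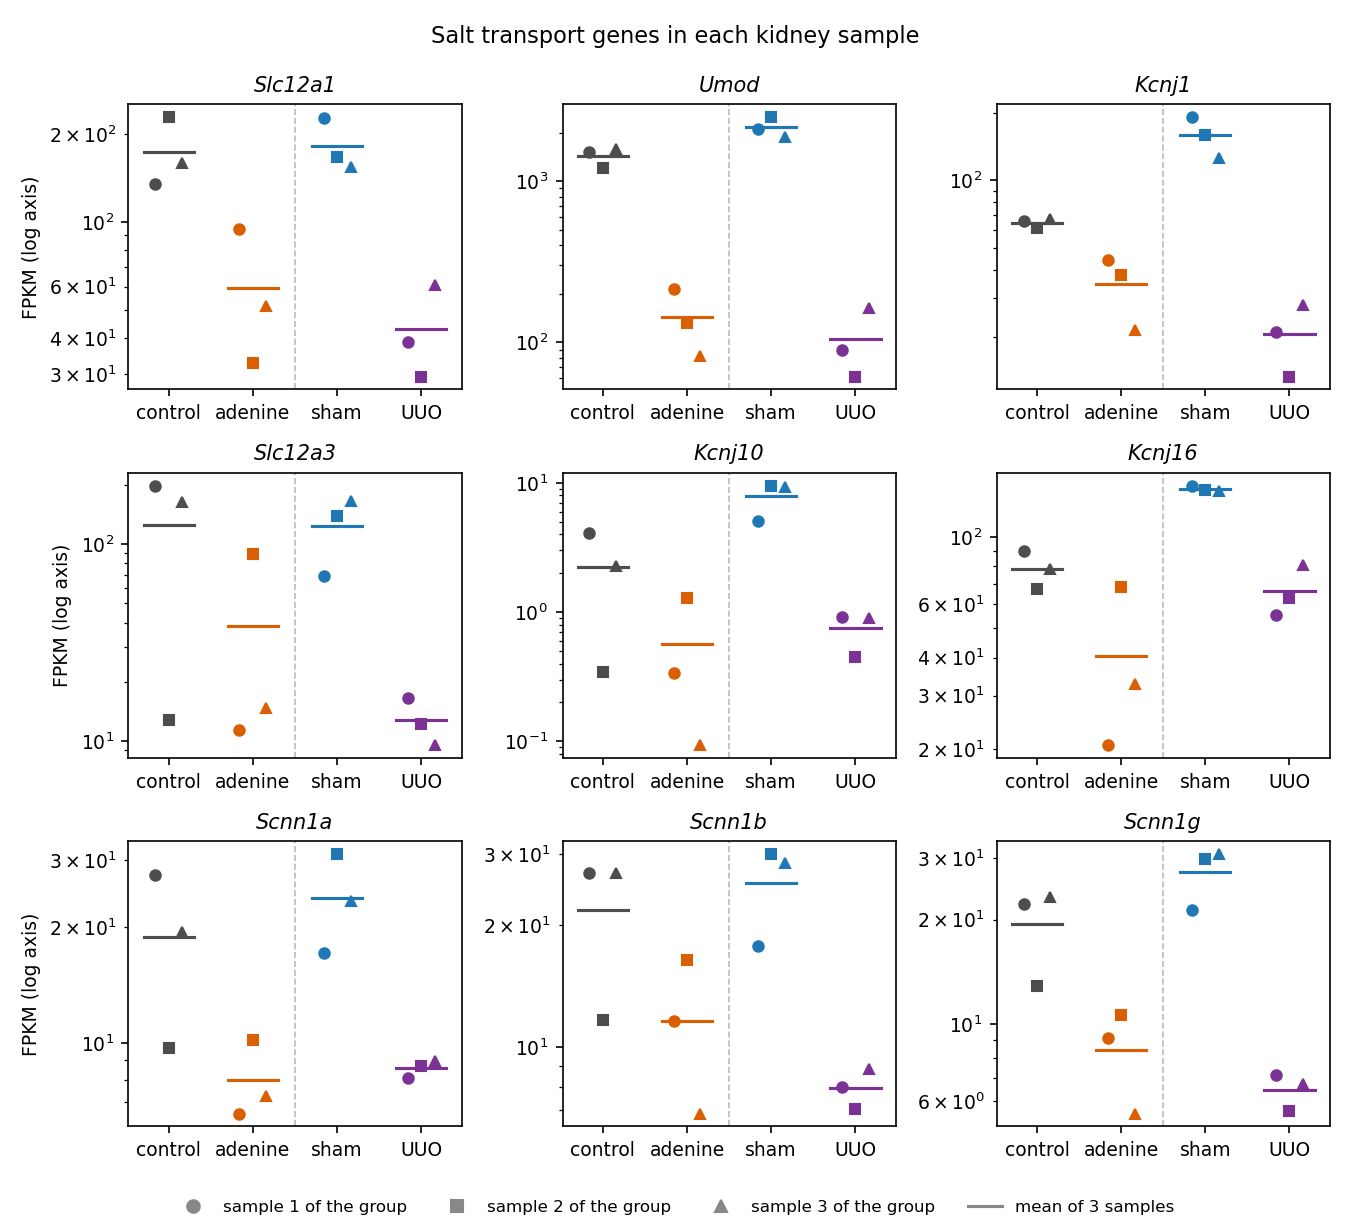
FPKM (log axis) of the 9 genes in each of the 12 kidney samples; points are single samples, marked by their number within the group, and lines are means of 3. For every gene the 3 UUO samples lie under the 3 sham samples, while for Slc12a3, Kcnj10, Kcnj16, Scnn1a and Scnn1b the control and adenine samples overlap.

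Control 2 and adenine 2 stood apart from the other samples of their groups before any comparison. Control 2 was low and adenine 2 high in Slc12a3, Kcnj10 and Scnn1a, and also in genes of other cells. Calb1, encoding the calcium-binding protein calbindin of the distal convoluted and connecting tubules, was 407, 27.5 and 190 FPKM in controls 1 to 3 and 9.49, 140 and 10.4 in adenine samples 1 to 3. The summed FPKM of 3 podocyte markers was 136, 29.7 and 189 in the controls and 21.8, 56.3 and 25.6 in the adenine samples. In the opposite sense, the summed level of 3 tubule injury markers was 560 in control 2, of which Spp1 alone made 552. It was 52.5 and 59.4 in the other controls, and all controls were far below the 10057 to 10910 of the adenine samples. In sham this sum was 152 to 386. The tissue labels were matched by tubule markers: the summed FPKM of 6 proximal tubule markers was 1428 to 2012 in control and 1889 to 2107 in sham, and was lower in every treated sample (147 to 403 with adenine and 272 to 494 with UUO). Of its 6 genes 4 fell in each model, and Slc5a2, a glucose transporter, had a higher mean with adenine (17.5) than in control (5.48; limma adjusted p = 0.1002). The sum of 4 fibroblast markers moved the other way, from 47.8 to 63.2 in control to 408 to 522 with adenine, and from 32.2 to 74.2 in sham to 620 to 1747 with UUO. Macrophage markers (3 genes, summed) rose from a range of 12.9 to 16.1 to 373 to 615 with adenine and from 14.0 to 21.5 to 160 to 193 with UUO, and each of the 3 passed the test in both models. The summed level of 5 markers of kidney epithelium at large overlapped between control (562 to 664) and adenine (594 to 721) and was higher in UUO (1114 to 1328) than in sham (623 to 746). Its members went different ways: 2 of 5 rose (the keratins Krt8 and Krt18) and 1 fell with adenine. With UUO 4 of 5 rose, where with median-of-ratios scaling 2 rose (Krt8 and Krt18) and 1 fell (Cdh16). Most of the higher sum in UUO came from Krt8 (mean 395 against 87.4 FPKM in sham) and Krt18 (101 against 17.9). Epcam was at 431 against 303, Cdh1 at 69.1 against 41.6 and Cdh16 at 209 against 241. Every marker with an entry was above 0 in all samples, the lowest being Slc5a2 at 0.232 in control 2. The part of these shifts in cell markers in the results below was not tested.

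**Figure D2:**
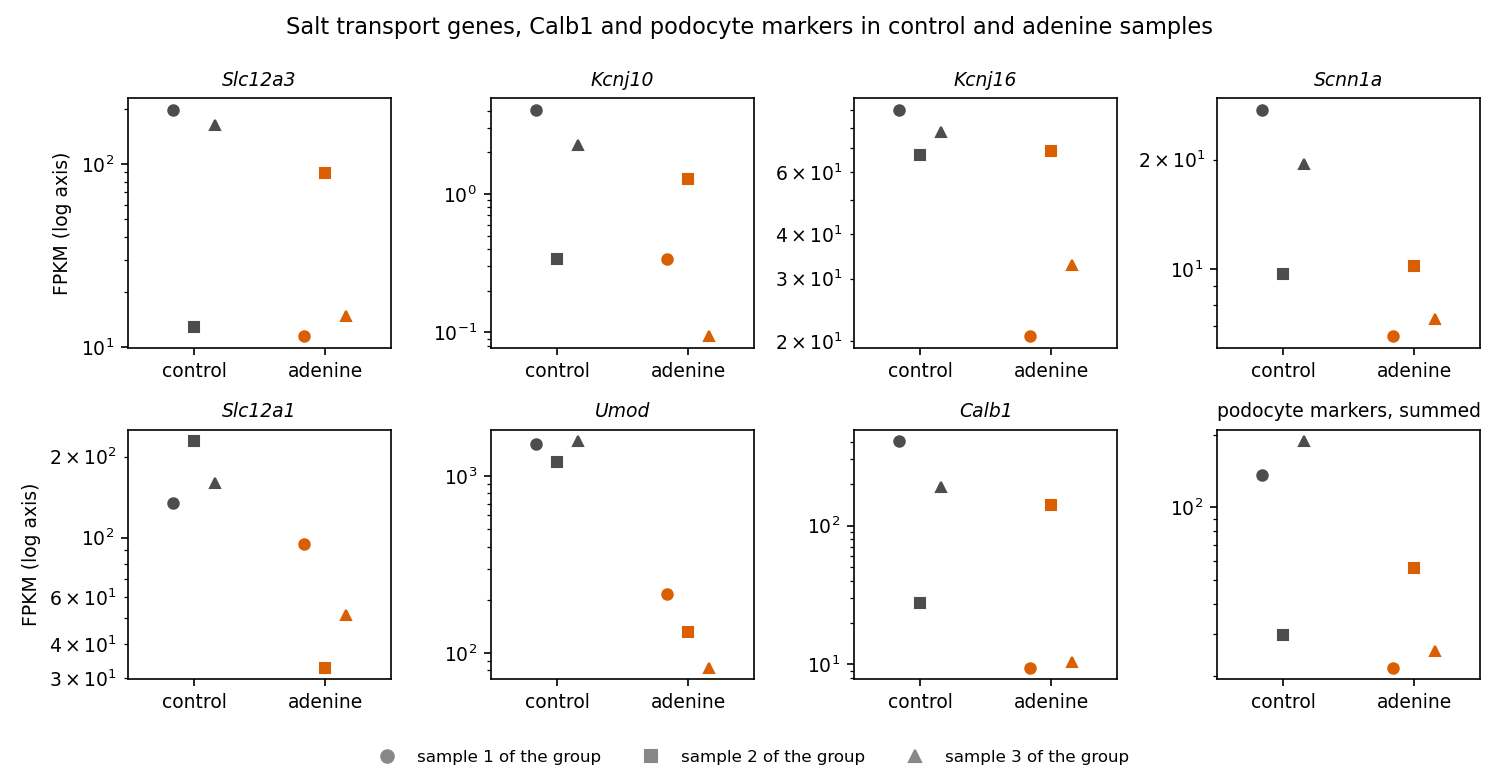
FPKM (log axis) of 6 salt transport genes, of Calb1 and of 3 summed podocyte markers in the 3 control and 3 adenine samples, marked by sample number. The square of control 2 sits low and that of adenine 2 high for Slc12a3, Kcnj10, Calb1 and the podocyte markers, but the groups separate for Slc12a1 and Umod.

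Umod had the highest mean level of the 9 genes in every group and the largest change in both models, except that Kcnj16 was higher in UUO 2 (62.9 against 61.3 FPKM) and that without control 2 and adenine 2 the change of Slc12a3 with adenine was larger (−3.77 against −3.54). It was measured at 1521, 1207 and 1588 FPKM in the controls and at 215, 131 and 82.7 in the adenine samples. The highest adenine sample was thus under 1207, the lowest control, and the groups did not overlap. The mean was 1439 ± 203 (SD, n = 3) in control and 143 ± 67.1 (n = 3) with adenine, which left 9.95% of the control mean, and the log2 fold change was −3.43 (SE 0.34, limma adjusted p = 0.000267). In the sham samples Umod was at 2095, 2490 and 1888 FPKM, and in the UUO samples at 89.9, 61.3 and 163. All UUO samples were far below all sham samples, 4.85% of the sham mean was left, and the log2 fold change was −4.47 (SE 0.34, limma adjusted p = 6.2e-05). By rank among all entries of a sample, Umod stood at place 29 to 38 in control and 23 to 26 in sham, and at place 280 to 768 with adenine and 451 to 1482 with UUO.

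The region before its transcription start is shown because Umod changed most over all samples, with a TATA motif and a steroid receptor motif in capitals. Promoters are from RefSeq (rat assembly GRCr8), which had an entry for 8 of the 9 genes, and the 250 bases before the start are printed 5′ to 3′ on the strand of the gene; the files' own build is not given in the sources used here. Capitals mark TATAAA and TGTTCT on either strand, which occurred in 12.9% and 17.5% of 33469 rat promoter windows of the same length. The window of Umod holds TATAAA at 2 places, the farther one beginning 219 bases before the start, and TGTTCT beginning 95 bases before it.
Umod (chr1:183261017-183261266, minus strand): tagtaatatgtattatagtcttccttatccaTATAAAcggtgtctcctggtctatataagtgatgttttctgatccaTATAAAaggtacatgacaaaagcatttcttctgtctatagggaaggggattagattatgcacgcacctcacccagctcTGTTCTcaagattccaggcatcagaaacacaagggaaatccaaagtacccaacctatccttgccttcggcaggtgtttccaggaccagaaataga

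Slc12a1, the NKCC2 gene, fell in both models, by less than Umod. Its FPKM was 135, 229 and 160 in the controls and 94.4, 32.8 and 51.7 in the adenine samples. The lowest control was above the highest adenine sample, and the log2 fold change was −1.65 (SE 0.39, limma adjusted p = 0.0102), with 34.2% of the control mean left. Control 2 was here the highest control and adenine 2 the lowest adenine sample, the reverse of their places for Slc12a3. Without both, the log2 fold change was −1.07 (adjusted p = 0.0394). In sham the values were 228, 167 and 155 FPKM and in UUO 38.9, 29.5 and 60.9. The groups did not overlap, and the log2 fold change was −2.13 (SE 0.28, limma adjusted p = 0.000537), a DEG, with 23.5% of the sham mean left.

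Kcnj1, which encodes ROMK, separated completely from its controls in both models but by very different amounts. The controls were close together at 65.5, 61.1 and 67.4 FPKM, and the adenine samples were at 44.0, 38.0 and 21.4. All adenine samples were lower, 53.3% of the control mean was left and the log2 fold change was −0.97 (SE 0.26, limma adjusted p = 0.0163). Without both control 2 and adenine 2 it was −1.11 and the adjusted p was 0.0503. The sham samples were at 191, 158 and 126 FPKM and the UUO samples at 21.1, 13.3 and 27.7. The highest UUO sample was far below the lowest sham sample, 13.1% of the sham mean was left, and the log2 fold change was −2.97 (SE 0.28, limma adjusted p = 0.000133).

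The promoter windows of Slc12a1 and Kcnj1 are shown as those of the pair of genes that work together at the apical membrane of the thick limb. RefSeq lists 2 starts for each, and the first listed is printed. The printed Slc12a1 window holds neither motif. The printed Kcnj1 window holds TATAAA beginning 41 bases and TGTTCT beginning 27 bases before the start, both in capitals. At the second starts, the Slc12a1 window also holds neither motif. The second Kcnj1 window differs from the first: it holds no TATAAA and has TGTTCT at 2 places, on the opposite strand.
Slc12a1 (chr3:132859409-132859658, plus strand): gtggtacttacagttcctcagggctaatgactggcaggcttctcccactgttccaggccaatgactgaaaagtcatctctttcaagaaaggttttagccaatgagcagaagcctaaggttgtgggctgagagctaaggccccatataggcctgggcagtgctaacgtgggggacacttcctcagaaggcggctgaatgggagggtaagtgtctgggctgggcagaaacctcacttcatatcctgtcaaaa
Kcnj1 (chr8:39037742-39037991, plus strand): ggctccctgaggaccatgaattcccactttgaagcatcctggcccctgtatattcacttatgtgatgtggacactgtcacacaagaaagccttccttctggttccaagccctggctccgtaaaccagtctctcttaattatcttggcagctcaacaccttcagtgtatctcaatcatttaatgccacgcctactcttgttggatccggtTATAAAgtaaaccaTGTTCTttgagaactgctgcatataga

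Ratios within a sample do not depend on how samples were scaled, and 9 pairs of members were compared in each model. With 3 samples against 3 the two-sided exact permutation test cannot give a p under 0.1, so that no ratio could pass 0.05. Umod per Slc12a1 was 11.3, 5.27 and 9.94 in the controls and 2.28, 3.997 and 1.60 with adenine. In sham it was 9.19, 14.9 and 12.2 and in UUO 2.31, 2.08 and 2.68. The treated samples were lower than all reference samples in both models, with differences of −1.78 and −2.34 on the log2 scale (exact p = 0.1 in both; Benjamini-Hochberg over 9 pairs 0.45 and 0.18). Without control 2 and adenine 2 the former was −2.47. Leaving out these samples also turned the adenine differences of Slc12a3 per Slc12a1 (0.055 to −2.71) and Scnn1a per Slc12a1 (0.51 to −0.67), for which the groups overlapped in both models. Kcnj1 per Slc12a1 was 0.838, 0.950 and 0.816 in sham and 0.543, 0.452 and 0.455 in UUO, with no overlap (difference −0.85 on the log2 scale, exact p = 0.1, adjusted 0.18). In the adenine model the same ratio was 0.486, 0.267 and 0.422 in the controls and 0.466, 1.16 and 0.414 in the treated samples, and the groups overlapped (difference 0.68, exact p = 0.5).

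Slc12a3, the NCC gene, was the member whose result depended most on single samples in the adenine model. It was at 197, 12.9 and 164 FPKM in the controls and at 11.5, 88.9 and 14.8 in the adenine samples. Control 2 lay among the low adenine samples and adenine 2 lay between them and the other controls, so that the groups overlapped and the log2 fold change of −1.59 (SE 1.22) did not pass the test (limma adjusted p = 0.293). Its 95% interval ran from −4.49 to 1.31. The test was passed in 1 of 6 fits without 1 sample, and the highest limma adjusted p of these fits was 0.596. The log2 fold change was −2.85 without control 2 (adjusted p = 0.0373), −2.51 without adenine 2 (adjusted p = 0.124) and −3.77 without both (SE 0.18, adjusted p = 0.000439); the last was chosen after the values had been seen. In the surgical model Slc12a3 was at 68.8, 139 and 164 FPKM in sham and at 16.6, 12.2 and 9.58 in UUO. All UUO samples were lower, 10.3% of the sham mean was left and the log2 fold change was −3.21 (SE 0.35, limma adjusted p = 0.000249).

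Kcnj10, encoding Kir4.1, had the lowest level of the 9 genes in every group and followed Slc12a3 across the samples. Its FPKM was 4.07, 0.341 and 2.26 in the controls and 0.338, 1.28 and 0.0936 with adenine. Control 2 was again as low as an adenine sample and adenine 2 the highest of its group. The log2 fold change was −1.74 (SE 1.01) and did not pass the test (limma adjusted p = 0.177). Without control 2 it was −2.68 (adjusted p = 0.0388), the 1 of 6 fits without 1 sample that passed. The highest limma adjusted p of these fits was 0.4325. Without both control 2 and adenine 2 it was −3.43 (adjusted p = 0.00697), but leaving out these samples was chosen after the values had been seen. In sham the values were 5.09, 9.51 and 9.28 FPKM and in UUO 0.919, 0.451 and 0.899. The groups did not overlap, and the log2 fold change was −3.23 (SE 0.35, limma adjusted p = 0.00024), with 9.51% of the sham mean left. Kcnj10 per Slc12a3 overlapped between the groups in both models (differences of −0.50 and −0.19 on the log2 scale, exact p = 0.7 in both).

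Kcnj16, encoding Kir5.1, the partner of Kir4.1, was far more abundant and changed less. In the controls it was at 90.1, 67.2 and 78.1 FPKM and in the adenine samples at 20.6, 68.6 and 32.8. Adenine 2 lay just above control 2, the groups overlapped, and the log2 fold change of −1.11 (SE 0.41) did not pass the test (limma adjusted p = 0.0516). Without adenine 2 the log2 fold change was −1.58 (adjusted p = 0.00293), the 1 of 6 fits without 1 sample that passed. The highest limma adjusted p of these fits was 0.1325. Without both control 2 and adenine 2 it was −1.69 (adjusted p = 0.00554), but leaving out these samples was chosen after the values had been seen. In sham it was nearly even at 147, 142 and 142 FPKM, and in UUO it was at 55.5, 62.9 and 80.9. All UUO samples were lower, and 46.2% of the sham mean was left; the change of −1.13 (SE 0.14, limma adjusted p = 0.000437) was the smallest of the 9 genes in this model. The amount of Kcnj16 per Kcnj10 was therefore 29.0, 15.0 and 15.3 in sham and 60.3, 139 and 90.0 in UUO, with no overlap (difference 2.28 on the log2 scale, exact p = 0.1, adjusted 0.18). In the adenine model this ratio overlapped between the groups (difference 0.97, exact p = 0.5).

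The windows of Slc12a3 and Kcnj10 are set side by side because Kcnj10 was low in the samples in which Slc12a3 was low. The Slc12a3 window has TATAAA, in capitals, beginning 32 bases before the start; the Kcnj10 window has neither motif and is richer in G and C (72.4% against 59.2%). Neither GTTAAT, a motif of HNF1, nor AAGGTCA, the site of estrogen-related receptors, was in the window of any of the 8 genes, on either strand; they occurred in 6.45% and 3.99% of all windows.
Slc12a3 (chr19:10675051-10675300, minus strand): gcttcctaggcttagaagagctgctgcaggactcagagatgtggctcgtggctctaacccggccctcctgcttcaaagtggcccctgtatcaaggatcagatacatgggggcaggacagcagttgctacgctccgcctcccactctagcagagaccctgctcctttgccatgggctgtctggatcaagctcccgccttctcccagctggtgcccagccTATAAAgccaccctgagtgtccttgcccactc
Kcnj10 (chr13:87334260-87334509, plus strand): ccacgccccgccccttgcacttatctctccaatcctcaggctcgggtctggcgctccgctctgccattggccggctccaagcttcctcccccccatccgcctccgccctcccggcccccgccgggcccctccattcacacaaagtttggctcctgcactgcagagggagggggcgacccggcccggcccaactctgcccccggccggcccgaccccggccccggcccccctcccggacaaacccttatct

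The ENaC subunits were at similar levels and fell together in UUO. Scnn1a, the alpha subunit, was at 27.4, 9.71 and 19.5 FPKM in the controls and at 6.54, 10.2 and 7.28 with adenine. Control 2 lay under adenine 2, so that the groups overlapped, although the log2 fold change of −1.13 (SE 0.38) passed the test (limma adjusted p = 0.0387). That call rested on every sample but control 2 and adenine 2: the adjusted p was 0.0986 without control 1, 0.104 without control 3, 0.1035 without adenine 1 and 0.105 without adenine 3, and it was 0.00401 without control 2 and 0.0434 without adenine 2. In sham Scnn1a was at 17.2, 31.0 and 23.5 FPKM and in UUO at 8.12, 8.71 and 8.96. The UUO samples were close together under all sham samples, and the log2 fold change was −1.42 (SE 0.21, limma adjusted p = 0.000918).

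Scnn1b, the beta subunit, was at 26.9, 11.7 and 26.9 FPKM in the controls and at 11.6, 16.4 and 6.87 with adenine. Control 2 was next to adenine 1 and under adenine 2, and the log2 fold change of −0.89 (SE 0.43) did not pass the test (limma adjusted p = 0.112). Without control 2 it was −1.29 (adjusted p = 0.0262), the 1 of 6 fits without 1 sample that passed. The highest limma adjusted p of these fits was 0.306. Without both control 2 and adenine 2 it was −1.58 (adjusted p = 0.00881), but leaving out these samples was chosen after the values had been seen. In sham Scnn1b was at 17.8, 29.9 and 28.4 FPKM and in UUO at 7.99, 7.05 and 8.84. The groups did not overlap and the log2 fold change was −1.63 (SE 0.21, limma adjusted p = 0.000559).

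Scnn1g, the gamma subunit, was at 22.2, 12.9 and 23.2 FPKM in the controls and at 9.14, 10.6 and 5.54 with adenine. It was the one subunit whose adenine samples were all under the controls, and the log2 fold change was −1.20 (SE 0.32, limma adjusted p = 0.0153). The adjusted p was 0.0510 without control 1 and 0.0526 without control 3. In sham Scnn1g was at 21.3, 29.9 and 30.8 FPKM and in UUO at 7.14, 5.62 and 6.72. All UUO samples were lower, 23.8% of the sham mean was left, and the log2 fold change was −2.04 (SE 0.17, limma adjusted p = 9.3e-05), a DEG. Scnn1g per Scnn1a was lower in all UUO than in all sham samples (difference −0.63 on the log2 scale, exact p = 0.1, adjusted 0.18), and Scnn1g per Scnn1b was lower in all treated samples of both models (differences of −0.31 with adenine and −0.42 with UUO, exact p = 0.1 in both). Without control 2 and adenine 2 the former of these was −0.081. Scnn1b per Scnn1a overlapped between the groups in both models.

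**Figure D3:**
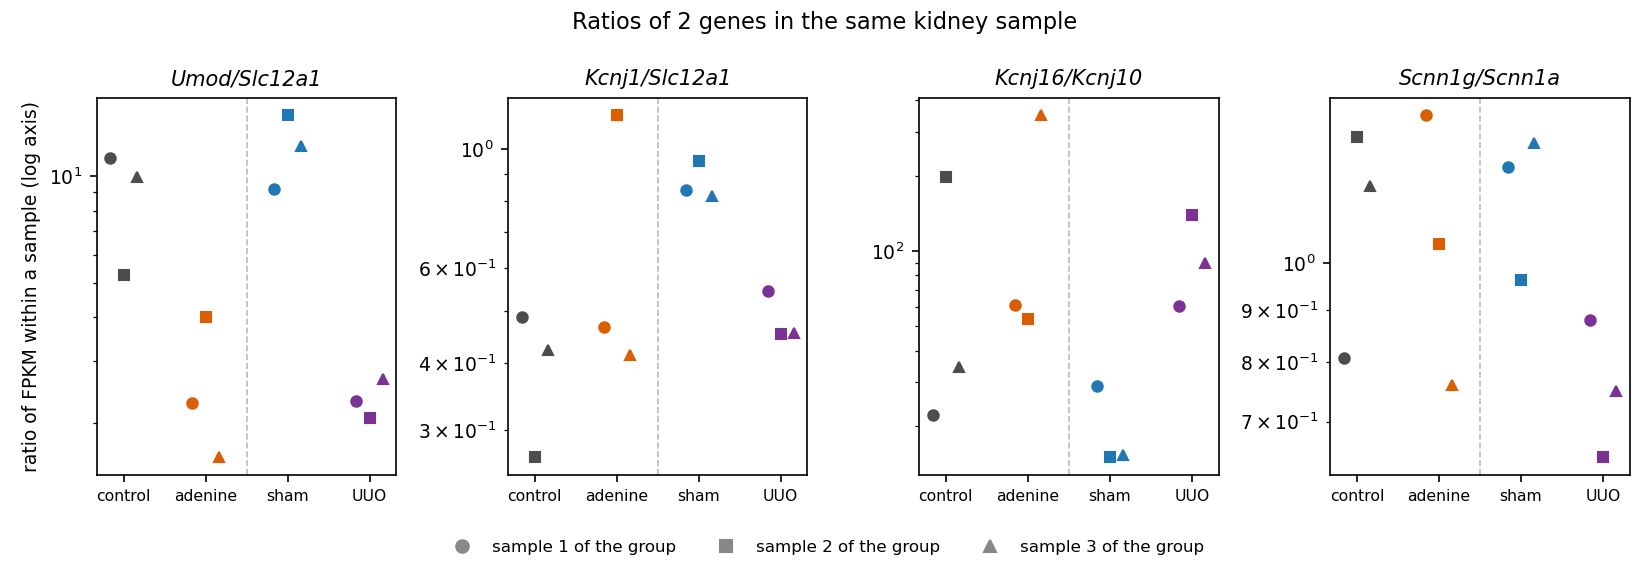
Ratios of FPKM of 2 genes in the same sample (log axis) in the 12 kidney samples, marked by sample number. Umod per Slc12a1 is lower in all treated samples of both models, and Kcnj1 per Slc12a1, Kcnj16 per Kcnj10 and Scnn1g per Scnn1a separate for sham and UUO only.

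The order of the levels changed between groups. In control it ran from Umod through Slc12a1 (175 ± 48.8 FPKM, SD, n = 3), Slc12a3 (125 ± 98.2), Kcnj16 (78.5 ± 11.4), Kcnj1 (64.7 ± 3.27), Scnn1b (21.8 ± 8.77), Scnn1g (19.4 ± 5.65) and Scnn1a (18.9 ± 8.86) to Kcnj10 (2.22 ± 1.86). Neighbours did not overlap at 3 steps only, below Umod, below Kcnj1 and above Kcnj10, so that the levels of Slc12a1, Slc12a3, Kcnj16 and Kcnj1, and those of the ENaC subunits, were not separated from their neighbours. In sham the order was Umod, Slc12a1 (183 ± 39.4), Kcnj1 (159 ± 32.4), Kcnj16 (144 ± 3.02), Slc12a3 (124 ± 49.5), Scnn1g (27.3 ± 5.23), Scnn1b (25.4 ± 6.64), Scnn1a (23.9 ± 6.93) and Kcnj10 (7.96 ± 2.49), again with 3 clear steps. In UUO Kcnj16 (66.4 ± 13.1) stood second, above Slc12a1 (43.1 ± 16.1) in 3 of 3 samples though their ranges overlapped, and Slc12a1 was clearly above Kcnj1 (20.7 ± 7.19). Scnn1g (6.49 ± 0.782), first of the ENaC subunits in sham by the mean, was last of them in UUO, under Scnn1b (7.96 ± 0.891) in 3 of 3 samples. With adenine Umod overlapped with Slc12a1 (59.6 ± 31.5), and Kcnj16 (40.7 ± 25.0), Slc12a3 (38.4 ± 43.8) and Kcnj1 (34.4 ± 11.7) followed without a clear step. The tables were normalised separately, so levels are ordered within a group and not set against each other across tables.

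**Figure D4:**
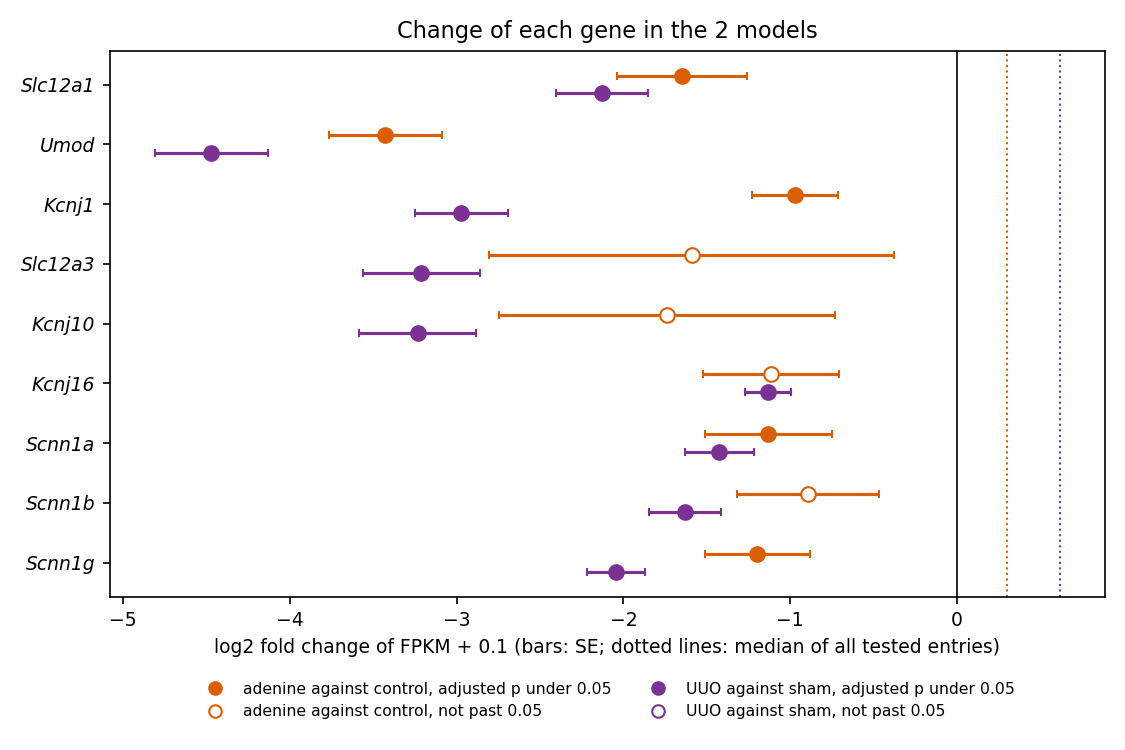
The log2 fold change of FPKM + 0.1 (horizontal axis) of each gene in the adenine model (orange) and the UUO model (purple), with bars for the SE; filled points had an adjusted p under 0.05, and dotted lines mark the medians of all tested entries. All 18 points lie below 0, and the bars of Kcnj1 are apart while those of Slc12a3 and Kcnj10 are wide with adenine.

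The changes in the 2 models were then compared gene by gene, as UUO minus adenine; the tables share no samples. Of the 9 genes 1 differed, Kcnj1, against 27.0% of the 13486 symbols tested in both tables. Its log2 fold change was lower with UUO, with a difference of −2.00 (SE 0.38, 95% interval −2.82 to −1.18, adjusted p = 0.00267 from the limma estimates), as −2.97 against −0.97. Control and sham were themselves unlike in Kcnj1 per Slc12a1, by the ratios given above. For Umod the difference was −1.05 (95% interval −2.08 to −0.015, adjusted p = 0.119) and for Scnn1g −0.85 (95% interval −1.62 to −0.073, adjusted p = 0.094). Scnn1g also differed with median-of-ratios scaling, by −1.15 (adjusted p = 0.0409). The other 6 differences did not pass the test, and their intervals were wide: Slc12a3 had −1.62 (95% interval −4.35 to 1.10), which turned to 0.56 (adjusted p = 0.320) without control 2 and adenine 2. Without these samples the differences of Kcnj10 (−1.50), Kcnj16 (−0.018, 95% interval −0.95 to 0.91) and Scnn1a (−0.29) also turned, to 0.19, 0.55 and 0.30. Slc12a1 had −0.48 (95% interval −1.51 to 0.55).

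Other genes of the same pathways were taken from 6 lists, with 52 genes tested in the adenine model, of which 10 rose and 17 fell, and 50 in the UUO model, of which 12 rose and 25 fell. Of all tested entries 39.6% rose and 19.9% fell with adenine, and 56.1% rose and 14.4% fell with UUO. The partners of NKCC2 in the thick limb mostly went down. With adenine 6 of 12 fell and none rose (median log2 fold change −1.36), and with UUO 10 of 12 fell and 1 rose (median −1.54). Egf, encoding epidermal growth factor, which the thick limb and distal convoluted tubule make, had the largest fall of the list in both models. It was 114, 21.4 and 87.2 FPKM in the controls and 0.699, 2.13 and 0.319 with adenine (log2 fold change −6.04, SE 0.80), and 145, 193 and 151 in sham and 0.384, 0.517 and 1.22 in UUO (−7.78, SE 0.36). Cldn10, a claudin of the paracellular sodium path, fell with adenine (−2.29, SE 0.37) and with UUO (−2.97, SE 0.18). Ptger3, a prostaglandin E2 receptor, was the riser in UUO at 0.83 (SE 0.23, limma adjusted p = 0.0151), a call lost with median-of-ratios scaling (0.23, adjusted p = 0.413).

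Regulators of NKCC2 and NCC moved in both directions. In the list of the WNK and SPAK kinase pathway 1 of 9 rose and 3 fell with adenine, and 2 of 8 rose and 3 fell with UUO, where with median-of-ratios scaling 1 rose and 5 fell. Oxsr1, the OSR1 kinase that phosphorylates NKCC2 and NCC, rose in both models. It was 11.5, 11.05 and 12.2 FPKM in control and 19.6, 19.9 and 20.0 with adenine (log2 fold change 0.77, SE 0.096), and 15.1, 14.1 and 14.1 in sham and 33.7, 33.5 and 37.4 in UUO (1.26, SE 0.088). Wnk1, a kinase upstream of it, fell with UUO by 0.85 (SE 0.19), and Cul3, the scaffold of the ligase that removes WNK kinases, fell with adenine by 0.80 (SE 0.16). Ppp1r1a, encoding protein phosphatase inhibitor 1, fell most, with log2 fold changes of −3.16 with adenine (SE 0.43) and −5.59 with UUO (SE 0.14). Cab39, encoding a SPAK and OSR1 adaptor, passed the test as higher in UUO at 0.32 (limma adjusted p = 0.0497), but its direction turned with median-of-ratios scaling (−0.28) and quantile normalization (−0.033). The call was kept in 0 of 6 fits without 1 sample.

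In the list of the distal convoluted tubule 2 of 8 genes rose and 2 fell with adenine, and 1 of 7 rose and 4 fell with UUO; with median-of-ratios scaling 1 rose and 3 fell, and 1 rose and 5 fell. Calb1 was at 104, 340 and 389 FPKM in sham and 4.82, 5.90 and 16.2 in UUO, and fell by 4.93 on the log2 scale (SE 0.63). Its difference with adenine, −2.41, did not pass the test (limma adjusted p = 0.158), and the low control and the high adenine sample were again those numbered 2. Trpv5, the apical calcium channel of the distal tubule, went the other way with adenine. It was at 3.36, 0.269 and 2.60 FPKM in control and 10.4, 12.5 and 8.57 with adenine (log2 fold change 2.79, SE 0.81, limma adjusted p = 0.0223), and the call was lost without any 1 of the adenine samples (adjusted p = 0.0534, 0.0622 and 0.0538 without adenine 1, 2 and 3). Slc8a1, the sodium-calcium exchanger, was higher by 1.99 with adenine (limma adjusted p = 0.0370), a call lost in 5 of 6 fits without 1 sample, with an adjusted p of 0.0572 without control 2, 0.0898 without control 3, and 0.0668, 0.0883 and 0.0979 without adenine 1, 2 and 3. The call was also lost with median-of-ratios scaling (1.71, limma adjusted p = 0.0590) and quantile normalization (1.58, limma adjusted p = 0.0648). Fxyd2, the gamma subunit of the sodium-potassium ATPase, fell in both models, with log2 fold changes of −1.89 (SE 0.18) and −2.73 (SE 0.15). Klk1, tissue kallikrein of the connecting tubule, fell by 5.70 with adenine (SE 1.12). Slc41a3, a magnesium transporter, rose by 1.24 with UUO (SE 0.19), a call not kept with quantile normalization (0.38, adjusted p = 0.103).

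Of 10 ENaC regulators, 2 rose and 4 fell with adenine and 2 rose and 5 fell with UUO, where with median-of-ratios scaling 1 rose and 7 fell. Sgk1, the aldosterone-induced kinase that keeps ENaC at the membrane, rose with adenine from 26.2, 23.4 and 30.8 to 64.4, 58.0 and 71.9 FPKM (log2 fold change 1.27, SE 0.14). With UUO its log2 fold change of −0.19 did not pass the test, but with median-of-ratios scaling Sgk1 fell (−0.79, limma adjusted p = 0.00582). Prss8, the channel-activating protease prostasin, fell in both models (−1.901, SE 0.13, with adenine and −1.48, SE 0.13, with UUO). St14, the protease matriptase, rose by 1.19 with adenine (SE 0.18) and by 1.08 with UUO (SE 0.24), the latter not kept with median-of-ratios scaling (0.48, adjusted p = 0.153). Fxyd4, a sodium-potassium ATPase subunit of the collecting duct, fell in both models, with log2 fold changes of −2.11 (SE 0.31) and −4.04 (SE 0.24). Tsc22d3, encoding the glucocorticoid-induced leucine zipper protein, rose by 1.73 with UUO (SE 0.22) and Usp2, a deubiquitinase, fell with adenine (−1.67, SE 0.25) and with UUO (−2.30, SE 0.36).

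Relatives of the members moved in both directions. Of 6 other cation-chloride cotransporters, 3 rose and 1 fell with adenine and 4 rose and 1 fell with UUO; with median-of-ratios scaling 2 rose and 1 fell, and 2 rose and 2 fell. The shares that rose were near those of all tested entries. Slc12a7 (KCC4) rose by 0.91 with adenine (SE 0.098), Slc12a4 (KCC1) by 1.55 with UUO (SE 0.13) and Slc12a9 by 0.75 with adenine (SE 0.14, a call lost with quantile normalization) and 1.23 with UUO (SE 0.13). Slc12a4 with adenine (0.65) and Slc12a7 with UUO (0.96) also passed the test, calls not kept under every scaling. Slc12a2, the gene of the widely expressed cotransporter NKCC1, fell by 0.58 with adenine (SE 0.14), a call lost where FPKM was rescaled to equal sums (−0.32, adjusted p = 0.0903). In UUO Slc12a2 passed the test as higher (0.56, limma adjusted p = 0.0172), a direction that turned with median-of-ratios scaling (−0.029, adjusted p = 0.885). Slc12a8 fell by 0.86 with UUO (SE 0.20). Of 7 other Kir channels, 2 rose and 1 fell with adenine and 2 rose and 2 fell with UUO, where with median-of-ratios scaling 1 rose and 3 fell. Kcnj8 (Kir6.1), a channel of vascular muscle and pericytes, rose by 1.24 with adenine (SE 0.20) and 3.04 with UUO (SE 0.24), and Kcnj2 (Kir2.1) by 1.66 with adenine (SE 0.32). Kcnj13 fell with adenine (−1.92, SE 0.46) and with UUO (−2.37, SE 0.34), and Kcnj15 fell with UUO (−2.79, SE 0.46). Kcnj14 rose by 1.10 with UUO (SE 0.23), a call not kept with median-of-ratios scaling (0.54, adjusted p = 0.0763).

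**Figure D5:**
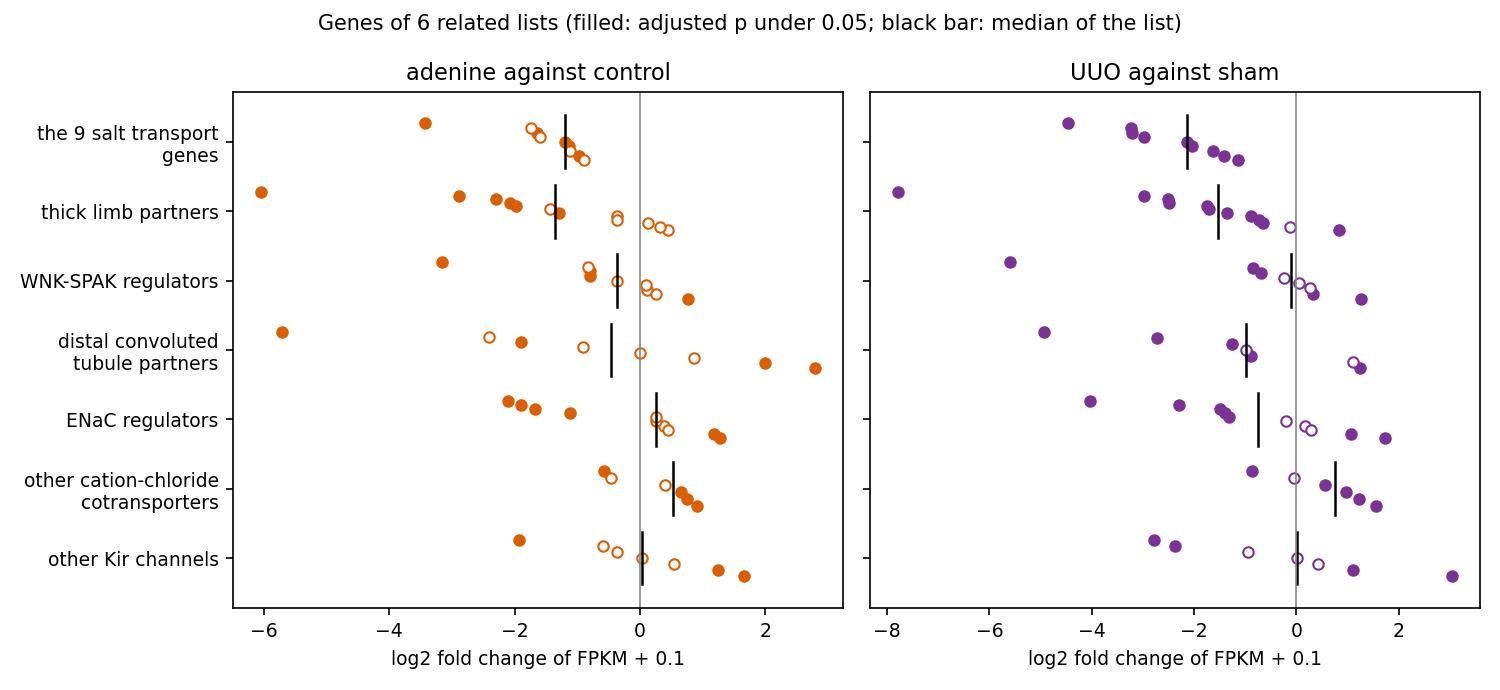
The log2 fold change of FPKM + 0.1 (horizontal axis) of the 9 genes and of 6 lists of related genes in the adenine model (left) and the UUO model (right); each point is a gene, filled where the adjusted p was under 0.05, and black bars are medians. The thick limb partners have medians of −1.36 and −1.54, and the other cation-chloride cotransporters have medians of 0.52 and 0.76, near the 0.30 and 0.62 of all tested entries.

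The genes most like 3 of the members across the 12 samples were found by the root mean square difference of log2(FPKM + 0.1), after centring on the control or sham mean, over 13486 symbols. For Slc12a3 the nearest of all was Kcnj10 (0.50), before Kl, encoding klotho, which is made mostly by the distal convoluted tubule (0.69), and Urad, an enzyme of uric acid breakdown (0.72). For Slc12a1 they were Prdm9 (0.32), Sult2b1, a sulfotransferase (0.34), and Avpr2, the vasopressin V2 receptor of the thick limb and collecting duct (0.37). The member nearest to Slc12a1 was Scnn1g, at place 222 (0.64). For Scnn1a the nearest were Prxl2b (0.19), Aldh1a1, a retinaldehyde dehydrogenase (0.23), and Apmap (0.23), with Scnn1b at place 7 (0.29). The points of this measure share their samples and, within a table, the same normalisation, so it is a description.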

How the data were processed

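RNA-seq was made from renal tissue of 12 rats. The authors deposited FPKM values per gene in 2 tables, 1 for control and adenine and 1 for sham and UUO, each normalised by itself. The submitters' processing notes name cutadapt 1.9, HISAT2 2.0.4, StringTie 1.3.4d, edgeR and DESeq2; the genome build and annotation are not given in the sources used here. By the methods, the authors' fold changes came from DESeq2, which needs read counts, so limma (3.58.1, R 4.3.3) was used here instead. FPKM gives no read counts, and the depth of the samples is unknown. FPKM sums per sample were 564972 to 582725 in control and 468389 to 487770 with adenine. In the second table they were 619664 to 630244 in sham and 528811 to 539011 in UUO. The treated samples thus had lower sums in both tables, and with FPKM rescaled to equal sums the falls of the 9 genes were smaller.

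Groups were taken from the labels, and all per-sample columns were used. Entries that reached an FPKM of 0.5 in 3 or more of the 6 samples (15029 and 15043 of 22132 and 32623) entered a fit of log2(FPKM + 0.1) with a mean-variance trend in each table, with Benjamini-Hochberg adjustment over all of them; the pseudocount makes fold changes of low genes such as Kcnj10 too small. Single levels and ratios were compared by two-sided exact permutation tests. The changes of both models were compared by their difference over the root of the summed squared SE, adjusted over 13486 symbols. The fit was tested on simulated data. Alternatives were other pseudocounts (1 and 0.01), no filter or a minimum FPKM of 1, 3 other scalings, no trend, a replicate block and leaving out each sample; leaving out control 2 and adenine 2 together was chosen after seeing the data.

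The members and gene lists were chosen with earlier results of these data known. Genes named were the 9 members, up to 2 changed genes with the largest rise and up to 2 with the largest fall from each of 6 lists in each model, and the 3 symbols nearest to Slc12a1, Slc12a3 and Scnn1a; markers are given as sums. A gene that this rule names is not reported here. Slc5a2 was added after its values were seen, as were Spp1, Krt8, Krt18, Epcam, Cdh1 and Cdh16. So were the values of Calb1, Sgk1, Prss8, Usp2, Cldn10, Slc12a2, Slc12a4 and Slc12a7 in the model whose changes did not name them. Tools were Python 3.11.15, pandas 2.3.3, numpy 2.4.6 and scipy 1.17.1.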

Additional observations from a re-analysis of the deposited data

Results flagged for a closer look

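The change of Kcnj1, the ROMK gene, differed between the models by the test of the difference itself. UUO minus adenine was −2.00 on the log2 scale (SE 0.38, adjusted p = 0.00267), and the difference passed the test in all 22 alternatives (adjusted p = 0.000862 to 0.0138). The reference groups were also unlike: Kcnj1 per Slc12a1 was 0.486, 0.267 and 0.422 in control and 0.838, 0.950 and 0.816 in sham. The part of this in the difference was not tested. The tables were normalised separately and the models differ in agent, duration and surgery, which cannot be told apart here.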

How the results depend on the processing

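All 9 genes kept a negative log2 fold change in both models in all 15 alternatives, and all 9 fell in UUO in each of them (4 to 6 DEGs where 1 sample was left out). In UUO 4 were DEGs with FPKM rescaled to equal sums, and 8 with median-of-ratios scaling. In the adenine model the number that fell was 3 to 8 where 1 sample was left out, with 3 without control 1, 8 without control 2 and 3 without control 3. It was 8 without both control 2 and adenine 2, samples picked after their values in these genes had been seen. DEGs among them numbered 1 to 3 where 1 sample was left out (3 without control 2, 2 without adenine 1) and 3 without both. Slc12a1, Umod and Kcnj1 fell in all 6 fits without 1 sample. With median-of-ratios scaling 7 fell with adenine, as Kcnj16 (adjusted p = 0.0214) and Scnn1b (adjusted p = 0.0493) passed the test. Scnn1a missed it without the filter (adjusted p = 0.0578), with FPKM rescaled to equal sums (0.0880) and without the trend (0.0514). Genes that differed between the models numbered 2 with median-of-ratios scaling, 2 with quantile normalization and 1 to 3 where 1 sample was left out (3 without adenine 3, 2 without sham 1, 2 without UUO 3). Cab39 in UUO turned from 0.32 to −0.28 and −0.033 with these scalings. With a pseudocount of 1, DEGs over all entries were 1320 in place of 2360 with adenine and 1465 in place of 2613 with UUO. Replicate numbers in the labels name different rats, and deviations of samples with the same number correlated at −0.12 to −0.049 in the adenine table and 0.050 to 0.11 in the UUO table, so the numbers were not taken as pairs. With a replicate block 4 genes fell with adenine, as Scnn1a did not pass the test (adjusted p = 0.0784), and 9 fell with UUO. The depth is unknown, and 3 samples a group limit what can be seen.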
